A study of Mus musculus with 17 samples.

Results

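Mammary tumors of FVB mice that carry a p75-CUX1 transgene under the regulatory sequences of the mouse mammary tumor virus were compared by histological type, 4 adenosquamous carcinomas against 3 solid carcinomas. The tumors were assigned to the types by their labels, with no measured value, and are 7 of the 17 tumors of the series. The adenosquamous carcinomas came from mice p75-47, p75-80, p75-94 and p75-101, and the solid carcinomas from mice p75-129, p75-150 and p75-534. All 7 share the strain and the transgene, each is 1 tumor of 1 mouse, and no tissue without the transgene was analysed here. The ages of the mice are not given in the sources used here. Epithelial cells were captured from frozen sections by laser microdissection and their RNA was amplified in 2 rounds. Each tumor was then hybridized on 2 dye-swapped Agilent arrays against amplified universal mouse reference RNA. A level is given as the log2 ratio of tumor over reference, and a difference is the mean of the adenosquamous minus the mean of the solid carcinomas on that scale.

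Adenosquamous carcinoma is a mammary carcinoma in which glandular cells lie next to nests of squamous cells, which stratify, make keratins of the skin type and end as cornified cells. Solid carcinoma grows as sheets of cells without such nests. In the mouse mammary gland, forced signaling through β-catenin is known to give squamous differentiation. In the Wnt/β-catenin pathway, Wnt ligands bind Frizzled receptors together with LRP co-receptors, the complex that degrades β-catenin is blocked, and β-catenin then acts with TCF and LEF factors on target genes. CUX1 is a homeodomain transcription factor, and p75 is one of its short isoforms.

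A gene was called measured in a tumor where its probe was well above background in the color of the tumor on every array. Of the 28784 genes, between 10745 and 15725 were measured in the adenosquamous and between 11746 and 19450 in the solid carcinomas. The share of probes well above background was 41.9% ± 8.68 (SD, n = 4) in the adenosquamous and 47.7% ± 15 (SD, n = 3) in the solid carcinomas, a difference smaller than the spread between tumors (exact permutation test, two-sided, p = 0.543). The smallest p that the 35 splits of 7 tumors can give in this exact permutation test is 0.0286. The highest shares were those of p75-129 (65%) and p75-94 (54.4%), which were scanned on the same day. The 14 arrays were scanned on 5 days. Both types were scanned together only as p75-94 with p75-129, on separate slides, and p75-101 with p75-150, on the same slide, so that differences within these pairs are given for the main gene lists and for some genes.

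The tumor labelled p75-101 correlated more with the solid carcinomas than with the other 3 adenosquamous carcinomas. Over the 8939 genes measured in all 7 tumors, its log2 ratios were closest to those of the solid carcinoma p75-150 from the same slide (Pearson r = 0.897 across genes, which are not independent replicates). Its r was 0.832 and 0.827 with the solid carcinomas p75-129 and p75-534, and 0.79, 0.756 and 0.677 with the adenosquamous carcinomas p75-47, p75-80 and p75-94. The solid carcinomas correlated with each other at 0.785 to 0.798, and p75-47, p75-80 and p75-94 at 0.762 to 0.794. These 3 correlated with the solid carcinomas at 0.655 to 0.79, so that the ranges overlap: p75-47 with p75-129 (0.79) and p75-80 with p75-150 (0.771) were both above p75-47 with p75-80. All of these values share the reference RNA. For p75-101 and p75-150, the shared slide and a likeness of the tumors cannot be told apart. Both also had the highest means of adipocyte genes, 3.0 and 1.6 relative to the 7 tumors, and the part of these in the correlation was not tested. Results are therefore given with and without p75-101. It was singled out after its values were seen, so that larger differences or smaller p without it follow in part from this choice.

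**Figure D1:**
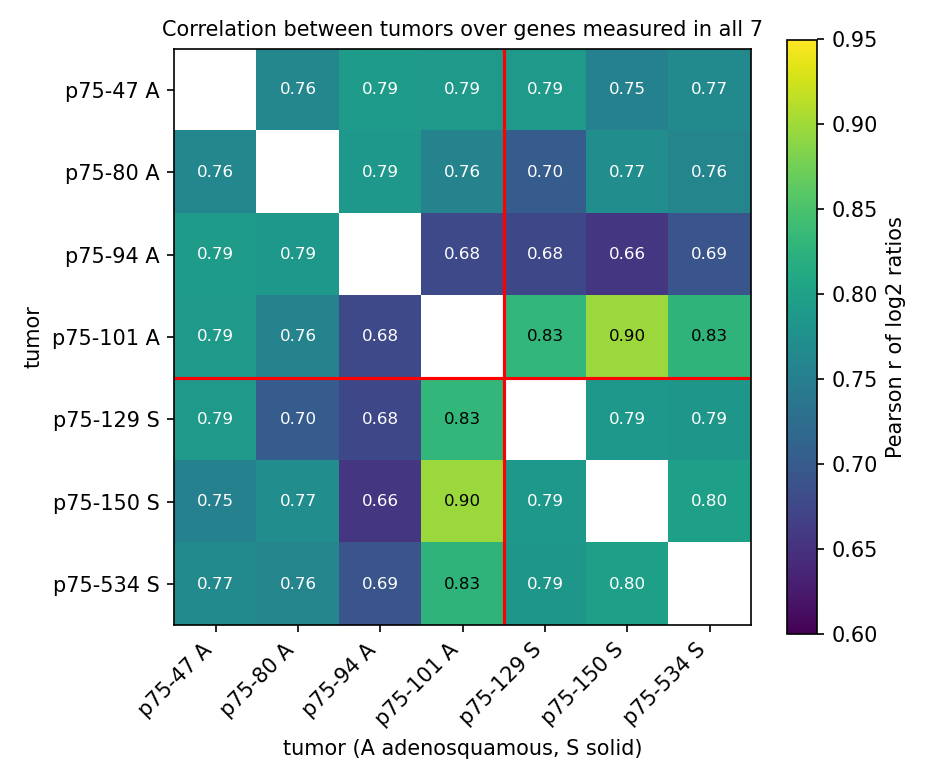
Pearson correlation of log2 ratios between the 7 tumors over the 8939 genes measured in all of them, ordered by histological type. The highest value is that of p75-101 with p75-150 (0.897), and the lowest is that of p75-94 with p75-150 (0.655).

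No gene passed the test between the types. The limma fit called 0 of 28784 genes (0%) at a Benjamini-Hochberg adjusted p under 0.05, with a smallest adjusted p of 0.472, and 1099 genes (3.82%) had an unadjusted p under 0.05. Of these, 534 (1.86%) had higher and 565 (1.96%) lower values in adenosquamous carcinomas. Without p75-101 limma again called 0, with 1927 genes (6.69%) under 0.05 unadjusted. These p-values measure the spread between 7 tumors of separate mice. Values of the types did not overlap for 671 genes with higher (2.33%) and 800 with lower values (2.78%) in adenosquamous carcinomas, and without p75-101 for 1566 (5.44%) and 1868 (6.49%). With fewer tumors, values fail to overlap more often by chance. The difference was at least 1 for 463 genes (1.61%) and −1 or below for 399 (1.39%), and without p75-101 for 682 (2.37%) and 686 (2.38%). No difference below is therefore called a change, and gene lists are described by counts and medians beside these shares. The median difference over all genes was −0.01, and the smallest limma adjusted p in every list was 0.988.

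Genes of the cornified envelope and of squamous differentiation stood high as a list in p75-80 and p75-94, and single members did in p75-47. The mean of the list, relative to the mean of the 7 tumors, was 1.24 in p75-80 and 0.79 in p75-94, −0.18 in p75-47, −0.45 in p75-101 and −0.53 to −0.4 in the solid carcinomas. Of 79 listed genes, 70 had a probe, 55 of these had a difference above 0 (against 47.5% of all genes) and 23 one of at least 1. The median difference was 0.24, 0.39 without p75-101, 0.31 within the pair p75-94 and p75-129 and −0.05 within the pair p75-101 and p75-150, and 0.18 to 0.39 when each tumor was left out in turn. The members above every solid carcinoma numbered 29 in p75-47, 47 in p75-80, 41 in p75-94 and 12 in p75-101, while 21.6%, 24.8%, 25.4% and 23% of all genes were so in these tumors. Below every solid carcinoma were 13, 5, 10 and 25, against 24.4%, 26.8%, 28.6% and 27% of all genes. The types did not overlap for 3 members upward and 1 downward (against 2.33% and 2.78% of all genes), and without p75-101 for 20 upward and 1 downward (against 5.44% and 6.49%). Of the 70, 17 were measured in all 7 tumors and 10 in none.

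Tchh encodes trichohyalin, a structural protein of the inner root sheath and of cornifying cells (probe at chr3:93550647-93550706, mm7). Its level was 3.15, 8.17 and 8.43 in p75-47, p75-80 and p75-94, 0.73 in p75-101, and −0.05, 0.98 and −0.3 in the solid carcinomas p75-129, p75-150 and p75-534. The first 3 tumors were above all others and p75-101 lay within the range of the solid carcinomas. The difference was 4.91 (SE 2.02, limma adjusted p 0.988), and 6.37 without p75-101 (limma adjusted p 0.474). A dimmer probe of Tchh differed by 0.03. S100a14, a calcium-binding protein of epithelia, was at 5.07, 7.27, 6.41 and 1.52 against 0.65, 1.87 and 2.36, also with p75-101 within the range of the solid carcinomas. Lypd3, a surface protein of stratified epithelium, was at 4.11, 6.64, 5.55 and 3.7 against 1.99, 3.23 and 3.18. For Lypd3 all 4 adenosquamous carcinomas lay above the solid ones, with a difference of 2.2 (SE 0.78).

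Single genes of the list differed in the tumors where they were high. Sprr2d, a small proline-rich protein of the cornified envelope, was at 7.15 in p75-80 and 2.26 in p75-94 and between −0.11 and 0.04 in the other 5 tumors. Crct1, a cysteine-rich protein of the epidermis, was at 8.0 and 6.15 there, at 1.21 in p75-47 and between 0.05 and 0.14 in the other 4. Klk6, a serine protease of the kallikrein family, was at 4.36, 4.52 and 6.0 in p75-47, p75-80 and p75-94 and between −0.03 and 0.37 in the others. Sprr2d, Crct1 and Klk6 were chosen after their values were seen. Sprr2d was measured in p75-80, p75-94 and p75-129 alone, and Klk6 in these and p75-47 alone. Among the defining genes of the envelope, Ivl (involucrin) was not measured in any tumor. Lor (loricrin) was at −0.16, 4.2, 0.81 and 0.82 in the adenosquamous and at 0.11, −0.49 and −0.41 in the solid carcinomas, and stood out in p75-80.

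Keratins of stratified and stressed epithelium had list means of 0.19, 1.43 and 0.94 in p75-47, p75-80 and p75-94, relative to the 7 tumors, −0.67 in p75-101 and −0.78 to −0.51 in the solid carcinomas. Of 15 genes with a probe, 13 had a difference above 0, and the median was 0.72, or 0.91 without p75-101 and 0.33 without p75-80. It was 0.9 within the pair p75-94 and p75-129 and −0.04 within the pair p75-101 and p75-150. Above every solid carcinoma were 6, 14, 9 and 2 of them in p75-47, p75-80, p75-94 and p75-101, against 21.6%, 24.8%, 25.4% and 23% of all genes. Those below every solid carcinoma numbered 3, 0, 1 and 5, against 24.4%, 26.8%, 28.6% and 27% of all genes. Of the 15, 4 were measured in all 7 tumors and 2 in none, so that these ranks include probes not well above background. Krt16, a keratin of stressed and hyperproliferative epidermis (probe at chr11:100355130-100355189, mm7), was at 5.78, 7.64 and 5.46 in the first 3 adenosquamous carcinomas and at −0.6 in p75-101, against 0.13, −0.47 and −0.37 in the solid carcinomas. The value of p75-101 was thus the lowest of all 7. The difference was 4.81 (SE 1.89, limma adjusted p 0.988), and 6.53 without p75-101 (limma adjusted p 0.184). It was 5.33 within the pair p75-94 and p75-129 and −0.13 within the pair p75-101 and p75-150.

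Other keratins varied in how far p75-101 fell behind. Krt23 was at 5.33, 8.09, 8.61 and 4.33 against 4.56, 5.03 and 2.51, and Krt79, chosen after its values were seen, at 2.76, 3.56, 5.14 and 0.37 against −0.2, −0.17 and 1.39. For Krt23, p75-101 lay within the range of the solid carcinomas. Krt79 was measured in p75-47, p75-80, p75-94 and p75-534 alone, so that the other tumors are not ranked. Krt17, a keratin of basal and appendage cells, was at 6.0, 6.94, 3.67 and 3.64 against 1.48, 4.48 and 4.61, so that p75-94 and p75-101 lay below p75-150 and p75-534. Krt1, the suprabasal keratin of the epidermis, also chosen after its values were seen, was at 2.74 in p75-80, 0.92 in p75-94 and between −0.41 and 0.08 elsewhere. Krt6a, a keratin of wounded epithelium, was at 1.48 and 0.94 in these tumors and between −0.06 and 0.1 elsewhere. Krt1 and Krt6a were measured in p75-80, p75-94 and p75-129 alone. Krt10, the partner of Krt1, differed by 0.09, which was −0.24 with median centering in place of loess.

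Some alarmins, proteins that stressed keratinocytes and myeloid cells release, were high in p75-47, p75-80 and p75-94. Of 15 genes with a probe, 4 were measured in all 7 tumors and 3 in none. A difference above 0 was seen for 11 of the 15 and one of at least 1 for 5, and the median was 0.34. The median was 0.49 without p75-101 but 0.06 without p75-94, and 1.06 within the pair p75-94 and p75-129 and −0.04 within the pair p75-101 and p75-150. S100a8, a subunit of calprotectin, was at 5.28, 3.95, 5.41 and −1.01 against 0.78, −1.07 and −0.54. Its partner S100a9 was at 6.4, 9.02, 7.84 and 0.06 against 1.09, 0.1 and 3.94. In both genes p75-47, p75-80 and p75-94 were above all other tumors, and for S100a9 p75-534 came next. The β-defensin gene Defb14 was at 2.0, 4.31, 5.01 and 0.55 against 0.35, −0.11 and −0.11, and was measured in p75-47, p75-80, p75-94 and p75-129 alone. S100a9 and Defb14 were chosen after their values were seen. Lcn2, an iron-sequestering lipocalin, and Ccl20, a chemokine, differed by −0.24 and −0.5 with overlap. Markers of immune cells, 20 genes with a median difference of −0.06 (−0.12 to 0.11 when each tumor was left out), had mean levels of −0.21 to 0.29 in the adenosquamous and −0.44 to 0.55 in the solid carcinomas, relative to the mean of the 7 tumors.

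Hair follicle genes were mixed, with a median difference of 0.08 over 27 genes (0.05 to 0.11 when each tumor was left out) and 6 of at least 1. Of the 27, 4 were measured in all 7 tumors and 4 in none. Padi3, an enzyme that converts arginine of trichohyalin to citrulline, was at 1.94, 6.07, 5.81 and −1.4 against −1.16, −0.38 and −3.04, with p75-101 among the solid carcinomas. S100a3, a protein of the hair cuticle, was at 0.91, 1.38, 2.61 and −0.96 against 0.07, −1.12 and 0.04, also with p75-101 among the solid carcinomas. Trps1, a zinc finger factor, differed by −0.45, and its probes ranged from −0.45 to 0.24. Adhesion genes of stratified epithelium had a median difference of 0.1 over 20 genes (0.03 to 0.12 when each tumor was left out). Pkp1, a plakophilin of desmosomes, was at 3.69, 5.92, 5.18 and 1.64 against 0.62, 1.93 and 5.45, and the solid carcinoma p75-534 was among the high tumors. Dsp, desmoplakin, was likewise at 4.8 in p75-534 and differed by 1.18 (0.48 to 2.09 when each tumor was left out). Gjb6, a connexin, was highest in p75-129 (6.13) and p75-101 (6.05).

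**Figure D2:**
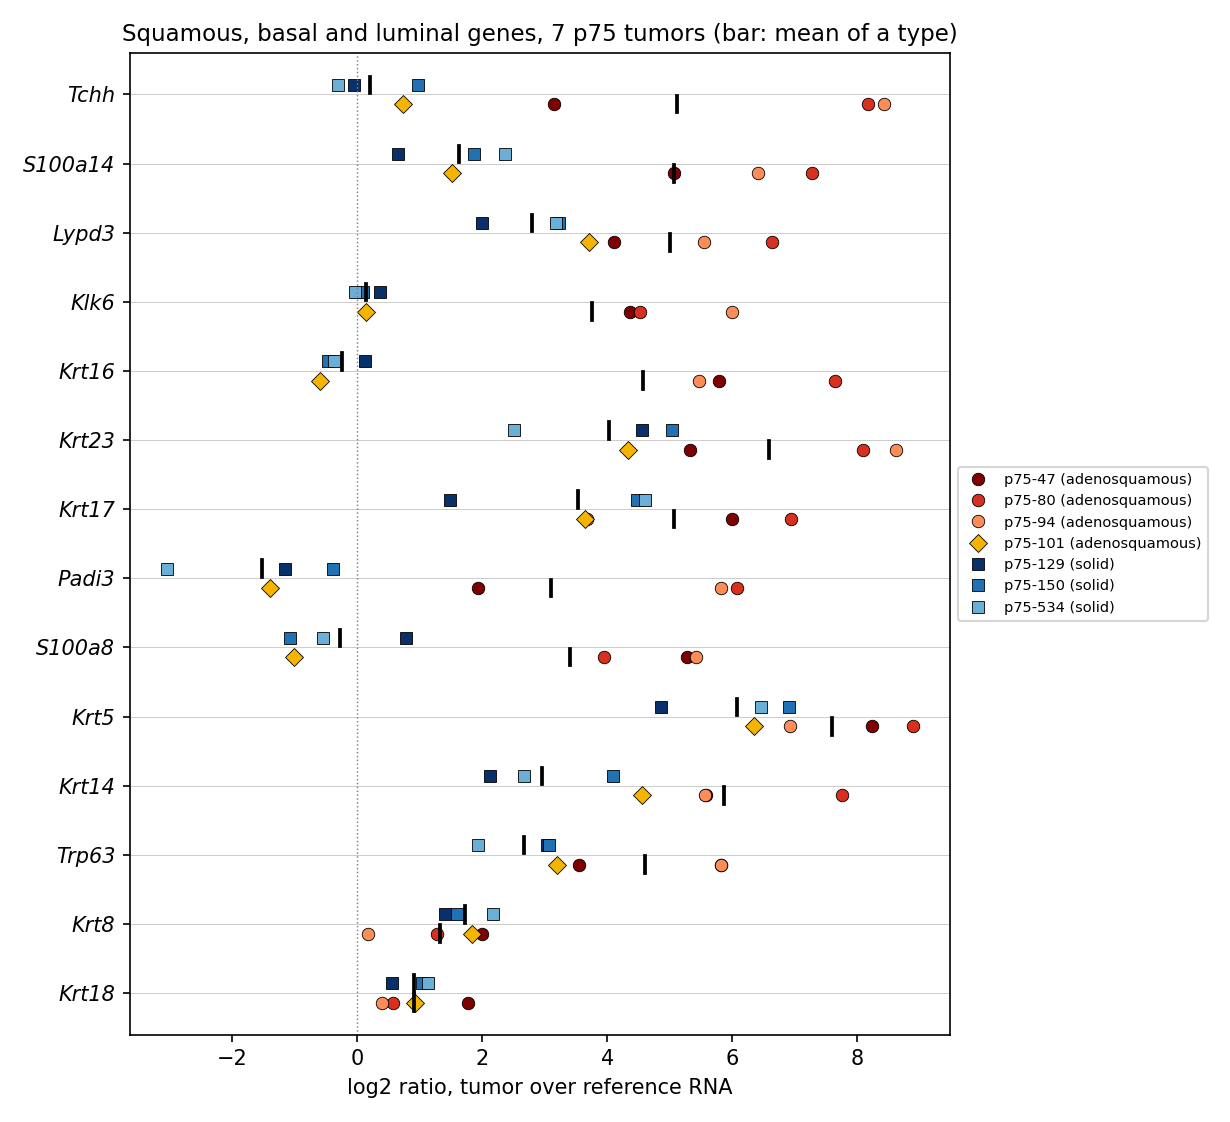
Log2 ratios of tumor over reference RNA for squamous, basal and luminal genes, with a point for each of the 7 tumors and a bar for the mean of each type. For Tchh, S100a14, Krt16 and S100a8, p75-101 lies apart from p75-47, p75-80 and p75-94, while for Krt14, Trp63 and Lypd3 all 4 adenosquamous carcinomas lie to the right of the solid ones.

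Among basal cell genes, Krt14 and Trp63 did not overlap between the types, with p75-101 the lowest adenosquamous carcinoma in both. Krt14, which with Krt5 forms the filaments of basal cells (probe at chr11:100312408-100313013, mm7), was at 5.58, 7.76, 5.56 and 4.56 in the adenosquamous and at 2.13, 4.09 and 2.67 in the solid carcinomas. The difference was 2.9 (SE 0.83, limma adjusted p 0.988), 3.34 without p75-101, 3.43 within the pair p75-94 and p75-129 and 0.47 within the pair p75-101 and p75-150. Trp63, which encodes the basal cell factor p63, was at 3.55, 5.82, 5.82 and 3.19 against 3.03, 3.06 and 1.93, a difference of 1.92 (SE 0.8), or 0.13 within the pair p75-101 and p75-150. Its 3 probes had differences from −0.02 to 1.92. Krt5 was at 8.23, 8.89, 6.92 and 6.34 against 4.86, 6.9 and 6.45, with overlap. Krt15 and Itgb4, a basal keratin and an integrin of hemidesmosomes chosen after their values were seen, were lowest of all 7 tumors in p75-101, at −0.3 and 3.23. Probes of Itgb4 had differences from −0.45 to 1.2.

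The list of basal and myoepithelial cells held 24 genes with a probe, 16 with a difference above 0, 6 of at least 1 and 1 of −1 or below, with a median of 0.15 (0.05 to 0.29 when each tumor was left out). Cnn1, calponin of contractile cells, was at 1.93, 4.14, −0.05 and 4.37 against 5.01, 4.94 and 3.45 and lowest in p75-94. Over 28 luminal genes the median was 0.0, and −0.13 without p75-101 (−0.13 to 0.06 when each tumor was left out). The luminal keratins Krt8 and Krt18 differed by −0.4 and 0.0. Krt19, another luminal keratin, was at 2.12, 1.23, −0.68 and 2.59 against 2.18, 2.13 and 3.22. Elf5, a factor of the alveolar lineage, was at 7.9, 7.34, 5.74 and 9.26 against 8.31, 9.04 and 9.14, and Prlr, the prolactin receptor, at 2.11, 1.71, −0.18 and 4.65 against 2.91, 3.88 and 3.33. For Krt19, Elf5 and Prlr, p75-47, p75-80 and p75-94 were below every solid carcinoma and p75-101 was not.

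Genes of milk and lactation were low in p75-94 and, by less, in p75-47 and p75-80, with list means of −2.73, −0.34 and −0.29 against 0.36 to 1.04 in the solid carcinomas and 1.11 in p75-101. Of 19 genes with a probe, 1 had a difference above 0 and 13 one of −1 or below. The median was −1.33, −1.74 without p75-101 and −0.61 without p75-94. It was −3.73 within the pair p75-94 and p75-129 and 0.31 within the pair p75-101 and p75-150, so that the pairs ran in opposite directions. The members below every solid carcinoma numbered 12 in p75-47, 13 in p75-80, 16 in p75-94 and 1 in p75-101, while 24.4%, 26.8%, 28.6% and 27% of all genes were so. Csn2, β-casein, was at 7.77, 8.97, 0.21 and 10.4 against 9.95, 10.62 and 9.26. Wap, whey acidic protein, was at 6.22, 6.7, 0.55 and 7.88 against 8.43, 7.77 and 7.13, and Glycam1, a mucin of milk, at 7.95, 8.48, 0.17 and 9.33 against 8.98, 9.39 and 8.09. These 3 genes were measured in every tumor but p75-94. Fabp3, a fatty acid carrier of the lactating gland chosen after its values were seen, was at 3.08, 2.96, −1.92 and 6.68 against 5.28, 5.24 and 3.98, lowest in p75-94 and highest in p75-101. In such samples fewer cells of a type and less RNA per cell cannot be told apart.

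**Figure D3:**
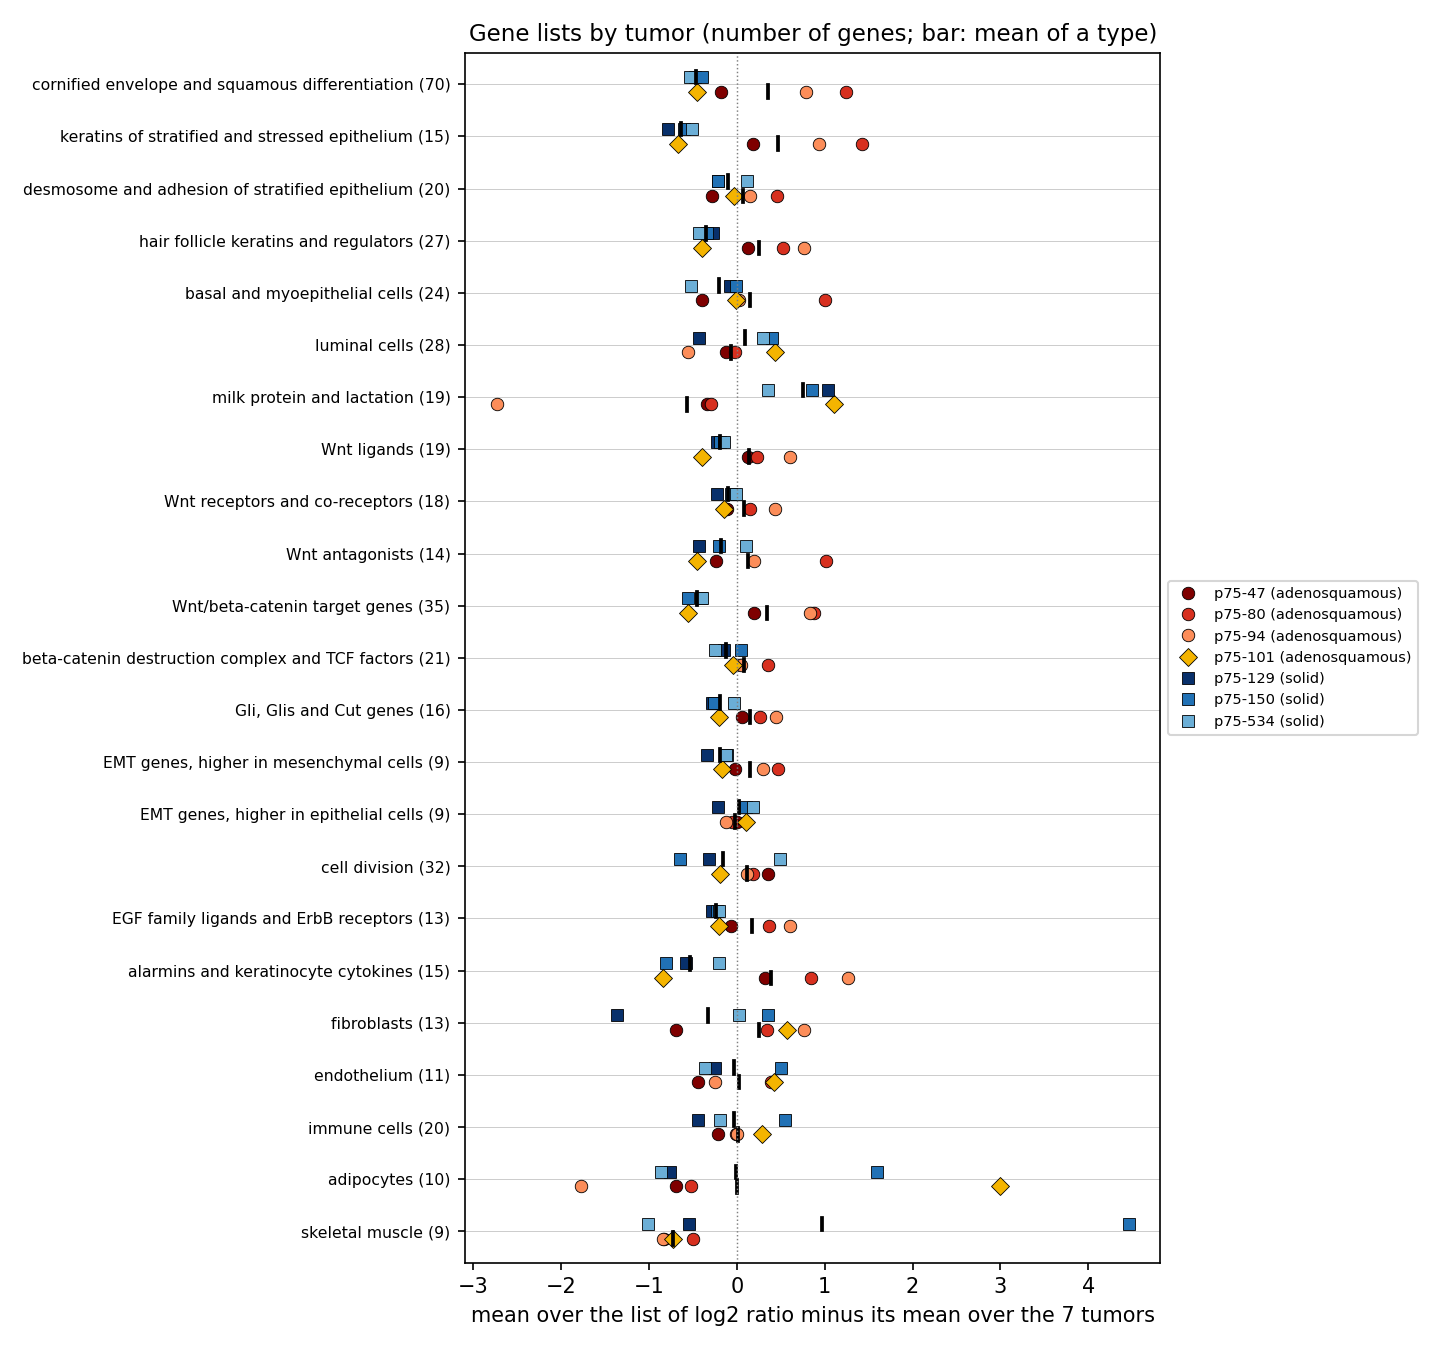
Mean over the genes of each list of the log2 ratio minus the mean of that gene over the 7 tumors, with a point for each tumor and a bar for the mean of each type. In the list of cornified envelope genes p75-47, p75-80 and p75-94 were at −0.18, 1.24 and 0.79 and p75-101 at −0.45, and in the milk list p75-94 was at −2.73 and p75-101 at 1.11.

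Wnt ligands were examined because the study asked about this pathway. Of 19 ligand genes with a probe, 11 had a difference above 0, and the median was 0.11, 0.19 without p75-101 and 0.01 without p75-94. It was 0.21 within the pair p75-94 and p75-129 and −0.11 within the pair p75-101 and p75-150. Only 3 of the 19 were measured in all 7 tumors, and the ranks that follow include probes not well above background. The ligands above every solid carcinoma numbered 9 in p75-47, 9 in p75-80, 12 in p75-94 and 1 in p75-101, against 21.6%, 24.8%, 25.4% and 23% of all genes. Those below every solid carcinoma numbered 4, 2, 3 and 13 in the same tumors, against 24.4%, 26.8%, 28.6% and 27% of all genes. Wnt10a, a ligand that acts through β-catenin, was at 0.35, 2.08, 2.0 and −4.04 against −2.05, −2.73 and −2.64. Its difference of 2.58 (SE 1.52) was 3.95 without p75-101, 4.05 within the pair p75-94 and p75-129 and −1.31 within the pair p75-101 and p75-150. Wnt6, whose gene lies next to Wnt10a, was at 1.25, 2.06, 2.15 and −0.59 against 0.11, −0.48 and −0.24. For both genes p75-47, p75-80 and p75-94 were the highest and p75-101 the lowest of all 7 tumors. Wnt5b, a ligand that mostly acts without β-catenin, was at 2.93, 1.42, 0.42 and 3.29 against 2.03, 3.83 and 3.7 and lowest in p75-94.

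Receptors had a median difference of 0.06 (−0.03 to 0.21 when each tumor was left out) over 18 genes. It was 0.55 within the pair p75-94 and p75-129 and −0.05 within the pair p75-101 and p75-150. Fzd10, a Frizzled receptor, was at 3.26, 4.11, 5.58 and 0.88 against 1.34, 1.81 and 0.32, with p75-101 among the solid carcinomas. A dimmer probe of Fzd10 differed by 0.06. Lgr6, a receptor for R-spondins, was at 1.08, 1.3, 2.17 and 0.55 against 0.46, 1.23 and 0.65, and Fzd9 differed by −0.48. Porcn, which attaches a lipid to Wnt ligands, was at 0.35, 2.04, 1.46 and −0.4 against −0.39, −0.2 and −0.88. Wls, which carries the ligands to the cell surface, was at −0.78, 0.05, −0.41 and −0.94 against −0.95, −1.26 and −1.82, without overlap. The closest values of the types for Wls were −0.94 in p75-101 and −0.95 in p75-129.

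Secreted antagonists ran in both directions. Over 14 genes with a probe the median difference was 0.14 (−0.02 to 0.23 when each tumor was left out), with 4 of at least 1 and 2 of −1 or below. Wif1, which binds Wnt ligands, was at 1.42, 3.95, 4.98 and 1.75 against 1.73, 0.92 and −0.01, highest in p75-80 and p75-94. Dkk3, of the Dickkopf family, was at 1.87, 1.14, 1.48 and 0.48 against 0.27, 0.3 and 0.35, without overlap (difference 0.94, SE 0.32). Dkk1, an antagonist at LRP co-receptors, was measured only in p75-80, at 4.38, and was between −0.01 and 0.11 in the other 6 tumors. Dkk3 and Dkk1 were chosen after their values were seen. Sfrp2, a secreted Frizzled-related protein, was at 0.08, −1.7, −0.61 and −0.82 against 0.62, −0.2 and 0.86. Sostdc1, an antagonist of Wnt and BMP ligands, was highest in p75-534 (5.74) and p75-80 (4.53).

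Target genes of Wnt/β-catenin had list means of 0.2, 0.88 and 0.83 in p75-47, p75-80 and p75-94, relative to the 7 tumors, −0.55 in p75-101 and −0.56 to −0.39 in the solid carcinomas. Of 35 genes with a probe, 26 had a difference above 0, 13 one of at least 1 and 1 one of −1 or below. The median was 0.29, 0.49 without p75-101 and 0.2 without p75-94. The members above every solid carcinoma numbered 15, 22 and 21 in these 3 tumors and 3 in p75-101, against 21.6%, 24.8%, 25.4% and 23% of all genes. Those below numbered 8, 4 and 3, and 16 in p75-101, against 24.4%, 26.8%, 28.6% and 27% of all genes. Of the 35, 13 were measured in all 7 tumors and 3 in none, so that these ranks include probes not well above background. The types did not overlap for 2 members upward and 0 downward (against 2.33% and 2.78% of all genes), and without p75-101 for 10 upward and 1 downward (against 5.44% and 6.49%). The median difference was 0.76 within the pair p75-94 and p75-129 and −0.06 within the pair p75-101 and p75-150.

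Apcdd1, a membrane protein that dampens Wnt signals, was at 2.25, 3.94, 5.28 and −0.78 in the adenosquamous and at −1.68, −1.46 and −1.75 in the solid carcinomas. All 4 adenosquamous carcinomas lay above the solid ones, with a difference of 4.3 (SE 1.38, limma adjusted p 0.988), but a dimmer probe of the gene differed by −0.05. Nkd1, a Dishevelled-binding inhibitor of the pathway, was at 2.86, 2.49, 3.62 and −0.4 against 0.64, −1.12 and −0.94. Cdkn2b, an inhibitor of cyclin-dependent kinases, was at 0.55, 0.21, 0.63 and −2.2 against −1.72, −3.61 and −2.86. For both genes p75-101 lay among the solid carcinomas, and the differences of 2.62 (SE 1.01) and 2.53 (SE 0.82) were 3.46 and 3.19 without it. Mmp7, a matrix metalloprotease, was at 3.74, 4.68, 4.2 and 0.54 against 0.22, 0.56 and 0.11, and was measured in p75-47, p75-80, p75-94 and p75-129 alone.

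Other targets were high in fewer tumors or ran the other way. Axin2, a common readout of the pathway, was not measured in any tumor, though its probe gave 0.81 in p75-80 and 1.01 in p75-94 and between 0.0 and 0.17 in the other 5. Sp5, a target that represses the pathway, was at 4.11 and 6.11 in these 2 tumors and between −0.04 and 0.83 in the others. Tnfrsf19, a receptor of the tumor necrosis factor family, was at 4.87, 4.01, 4.99 and 3.0 against 3.31, 2.33 and 0.16, with p75-101 among the solid carcinomas. Sox9, a factor of luminal progenitors, was at −0.05, 1.6, −2.0 and 2.64 against 1.78, 2.8 and 3.24 and lowest in p75-94. Probes of Sox9 had differences from −2.06 to −0.06. Mmp7, Sp5, Tnfrsf19 and Sox9 were chosen after their values were seen.

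Among the factors that act with β-catenin, Tcf7 was at −0.07, 0.54, 0.71 and −1.42 against −1.32, −1.32 and −1.14 and Lef1 at −0.97, −0.73, 0.6 and −2.51 against −1.89, −2.36 and −2.41. For Tcf7, measured in all 7 tumors, p75-47, p75-80 and p75-94 were above all others and p75-101 was the lowest. Dimmer probes of Tcf7 and Lef1 had differences down to 0.05 and 0.02. No array of a solid carcinoma showed Lef1 well above background, and among the adenosquamous carcinomas it was measured in p75-80 and p75-94 alone, so that the other 5 tumors are not ranked. By signals of the tumor color, the mean of Lef1 in the adenosquamous carcinomas was at least 2.02-fold that in the solid carcinomas. For the solid carcinomas the higher of the signal and the lowest signal well above background was taken on each array. The adenosquamous mean takes in p75-47 and p75-101, where Lef1 was not measured. Each tumor was read in both dyes, and dye bias in these signals was not tested. Ctnnb1, β-catenin itself, was at 0.66, 1.12, 1.29 and 0.66 against 0.35, 0.55 and 1.44, a difference of 0.15 that was −0.2 with median centering in place of loess. Over 21 genes of the destruction complex, TCF factors and ligand export, the median difference was 0.09 (0.03 to 0.27 when each tumor was left out).

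Promoters of the target genes were searched for the core of the TCF/LEF motif, CTTTGAT or CTTTGTT, on both strands of the 250 bases before each RefSeq start (GRCm38.p6). Promoters were found for 24 of the 35 genes, and 6 of their 33 promoters held a match, while 8.06% of all 32851 promoters did. The CUX1 motifs ATCGAT or ATCAAT were found in 5 of the 33 and in 7.4% of all. Of the 13 targets with a difference of at least 1, 11 had a promoter and 4 of these, Dkk1, Mmp7, Sp5 and Tnfrsf19, held a TCF/LEF match. Of the same 11, 3 held a CUX1 match, Cdkn2b, Lef1 and Mmp7. These counts are by gene, over 17 promoters, while the shares of all are by promoter. A match is a description of letters, not a bound site. The windows of Sp5, Tnfrsf19 and Dkk1 are shown as examples, with the matches in capitals, and that of Mmp7 is not shown. Sp5 (chr2:70474673-70474922, plus strand) holds matches 222 and 104 bases before the start, Tnfrsf19 (chr14:61037988-61038237, minus strand) one 202 bases and Dkk1 (chr19:30549497-30549746, minus strand) one 98 bases before it.
Sp5: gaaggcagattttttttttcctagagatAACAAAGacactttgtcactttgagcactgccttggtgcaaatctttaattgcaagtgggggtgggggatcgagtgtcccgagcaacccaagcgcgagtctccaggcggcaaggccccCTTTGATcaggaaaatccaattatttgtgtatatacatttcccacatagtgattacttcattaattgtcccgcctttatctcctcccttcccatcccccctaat
Tnfrsf19: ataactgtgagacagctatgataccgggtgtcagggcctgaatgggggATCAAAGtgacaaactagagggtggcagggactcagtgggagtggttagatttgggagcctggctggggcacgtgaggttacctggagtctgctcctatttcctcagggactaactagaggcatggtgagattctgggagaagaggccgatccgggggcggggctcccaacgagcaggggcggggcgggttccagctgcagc
Dkk1: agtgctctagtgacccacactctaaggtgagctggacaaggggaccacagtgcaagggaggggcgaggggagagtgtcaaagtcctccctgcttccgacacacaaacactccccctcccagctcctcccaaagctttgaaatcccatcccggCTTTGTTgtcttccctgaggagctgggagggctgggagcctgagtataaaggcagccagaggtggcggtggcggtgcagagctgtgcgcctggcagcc

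Glis1 and Cux1 were examined because the study asked which factors act on Wnt genes. Glis1, a zinc finger factor related to the Gli proteins, was at −1.16, −1.92, −0.71 and −2.48 against −1.52, −2.53 and −2.63, a difference of 0.66 (SE 0.49) with overlap, 0.96 without p75-101 and 0.37 to 1.01 when each tumor was left out. It was measured in p75-47, p75-94 and p75-129. Cux1 was at −0.47, −1.29, −0.33 and −1.75 against −1.04, −1.85 and −1.31, and its 3 probes had differences from −0.02 to 0.44. Its difference of 0.44 was 0.71 without p75-101 and 0.22 to 0.71 when each tumor was left out. Whether a probe reads the transgene was not tested. Gli3, a factor of the Hedgehog pathway, and its partner Sufu differed by 0.8 and 0.39 with overlap, and the median over 16 Gli, Glis and Cut genes was 0.1 (0.07 to 0.24 when each tumor was left out). Leaving out each tumor gave 0.42 to 1.45 for Gli3 and 0.1 to 0.74 for Sufu.

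**Figure D4:**
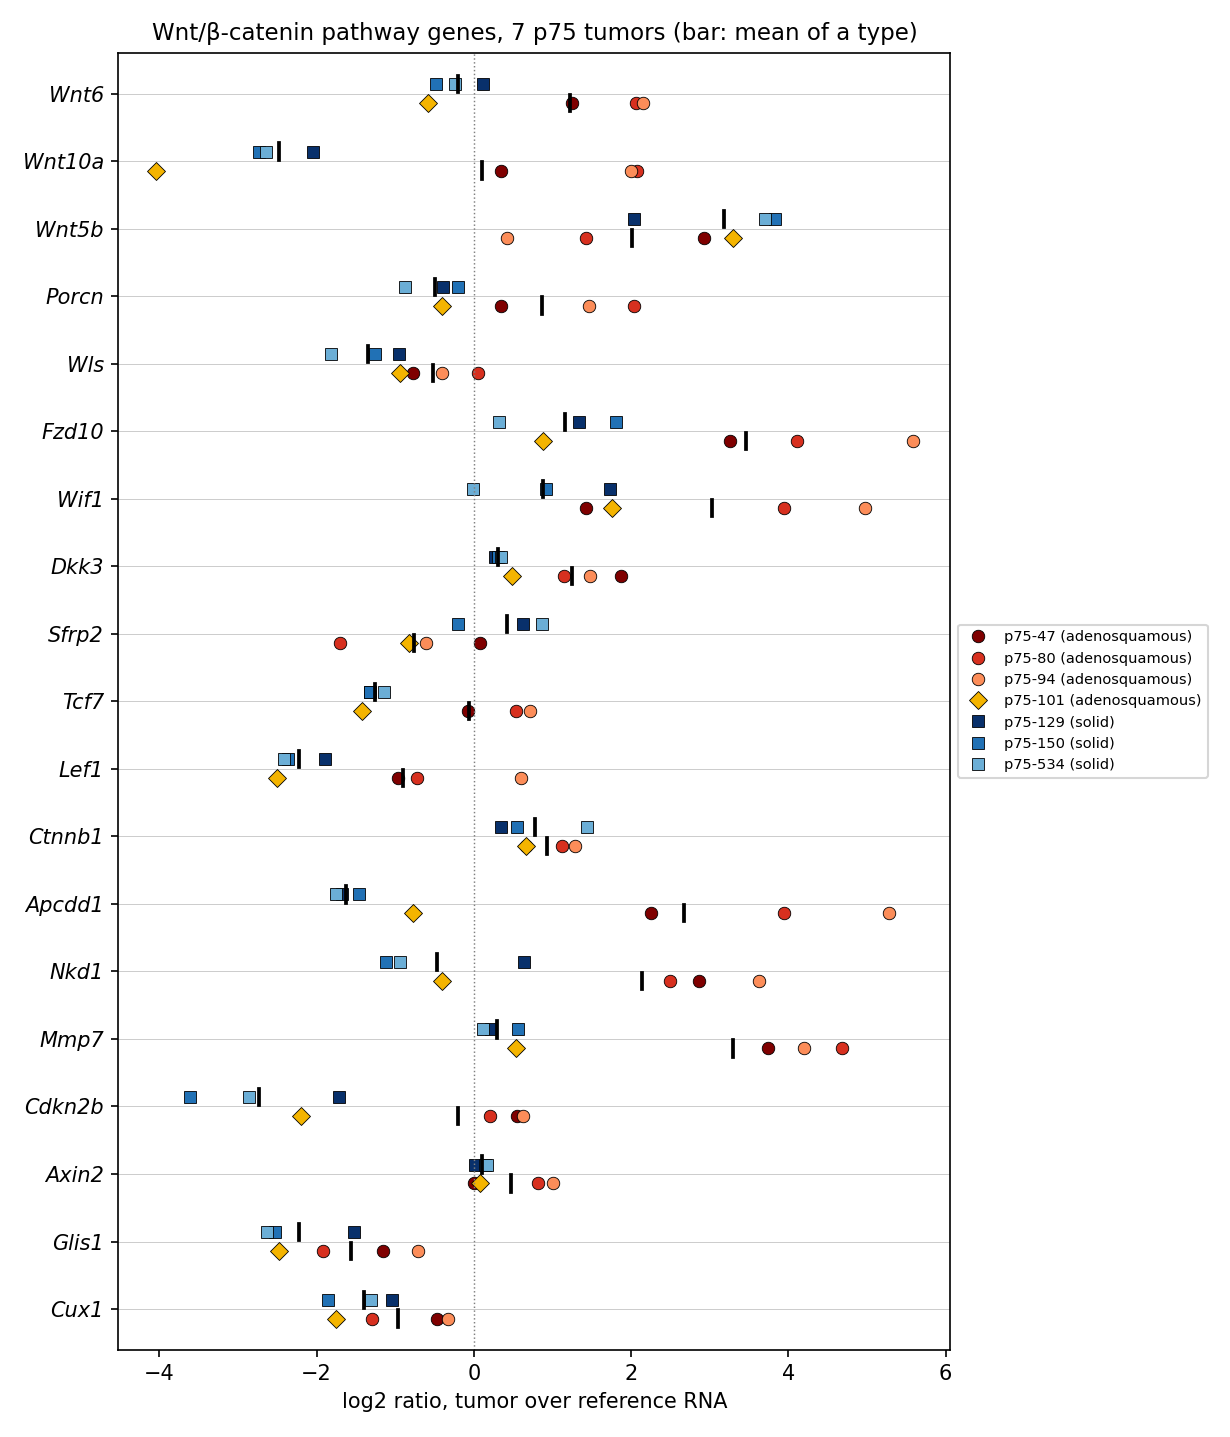
Log2 ratios of tumor over reference RNA for genes of the Wnt/β-catenin pathway with Glis1 and Cux1, with a point for each of the 7 tumors and a bar for the mean of each type. For Wnt6, Wnt10a, Tcf7 and Nkd1, p75-47, p75-80 and p75-94 lie to the right of all other tumors.

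Genes of cell division had a median difference of 0.25 over 32 genes, which was −0.03 with median centering, 0.0 without p75-150 and 0.63 without p75-534. Ccne1, cyclin E1, was at −0.13, 0.69, 0.54 and 0.05 against −0.75, −3.21 and 0.19 and lowest in p75-150. Rrm2, a subunit of ribonucleotide reductase, and Cdc20, an activator of the anaphase-promoting complex, differed by 0.98 and 0.74. Leaving out each tumor gave 0.4 to 1.44 for Rrm2 and 0.48 to 1.23 for Cdc20. Ligands of the EGF family and ErbB receptors had a median of 0.1 over 13 genes (0.02 to 0.24 when each tumor was left out). Hbegf, a ligand of the EGF receptor, was at −1.88, −0.34, 1.03 and −3.48 against −3.29, −3.34 and −3.2, lowest in p75-101, and its difference of 2.11 was −0.86 against all 9 solid carcinomas of both transgenes. Egfr and Erbb4, both receptors of this family, differed by 0.4 and −0.15. The difference of Egfr was 0.06 to 0.78 when each tumor was left out. In epithelial to mesenchymal transition, 9 mesenchymal genes had a median of 0.14 (0.06 to 0.34 when each tumor was left out) and 9 epithelial genes one of −0.05 (−0.11 to −0.01). The difference was above 0 for 9 of the mesenchymal and 2 of the epithelial genes, against 47.5% of all genes. In all 7 tumors 4 of the mesenchymal and 3 of the epithelial genes were measured, and in none 2 of each list. These signs thus include probes not well above background. Snai2, a repressor of epithelial genes that basal cells also make, was at −0.67, 1.51, −0.04 and −0.85 against −0.27, −1.24 and −1.78 (difference 1.08, SE 0.65, with overlap) and highest in p75-80. The repressors Zeb1 and Zeb2 differed by 0.14 (−0.13 with median centering) and 0.33, and the junction genes Cldn7, Ocln and Cldn3 by −0.46, −0.1 and −0.08. Vim, vimentin, differed by 0.05, and Cdh1, E-cadherin, was not measured in any of the 7 tumors.

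Markers of cells that lie next to the epithelium differed between tumors. Adipocyte genes were highest in p75-101, with a mean of 3.0 relative to the 7 tumors over 10 genes, then in p75-150 with 1.6, and at −1.77 to −0.52 in the others. Their median difference of 0.04 was −0.94 without p75-101 (−0.94 to 0.63 when each tumor was left out). Adipoq, adiponectin, was at 6.76 in p75-101, 4.29 in p75-150 and between −0.03 and 0.82 in the others. Skeletal muscle genes were at 4.46 over 9 genes in p75-150 and at −1.01 to −0.5 elsewhere, and their median difference of −1.46 was −0.08 without p75-150. Myh4, a fast myosin heavy chain, was at 9.65 there and between −0.14 and 0.15 in the other 6. Adipoq and Myh4 were chosen after their values were seen. Of 13 fibroblast genes, 12 had a difference above 0, with a median of 0.64 (0.25 to 1.02 when each tumor was left out), 2.31 within the pair p75-94 and p75-129 and 0.22 within the pair p75-101 and p75-150. The collagen gene Col6a3 was at −0.53, −0.08, 0.36 and −0.89 against −3.03, −0.98 and −0.98, without overlap, while Col1a2, another collagen, and Lum, lumican, differed by 1.22 and −1.8. The difference of Col1a2 was 0.25 to 1.89 when each tumor was left out. The 11 endothelial genes had a median of 0.04 (−0.09 to 0.33 when each tumor was left out). Their members Vwf, Flt1 and Esam differed by 0.64, 0.4 and −0.43, the adipocyte genes Cidec, Fabp4 and Lpl by 1.44, −0.87 and −1.24, and the immune cell genes Cd74, H2-Aa and Csf1r by 1.14, 0.84 and 0.84. Leaving out each tumor gave 0.23 to 2.92 for Cidec, −2.1 to 0.27 for Fabp4 and −2.29 to −0.29 for Lpl, and the difference of Cidec was 0.23 without p75-101. The part of these cells in the differences between the types was not tested.

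The genes with the smallest p lay outside these lists. Named here are the 10 in each direction with the smallest p among those whose types did not overlap and that were measured in every tumor of the higher type, 308 genes with higher and 333 with lower values in adenosquamous carcinomas. Predicted or unnamed transcripts, 22 of the 308 and 75 of the 333, were left out of the 20. None of the 20 passed, with limma adjusted p from 0.472 to 0.841. Zfp287, a zinc finger gene (chr11:62793208-62793267, mm7), was at 0.14, 0.25, 0.21 and 0.2 against −0.48, −0.51 and −0.69 (difference 0.76, SE 0.07). Utp4, a factor of ribosome assembly, was at 0.45, 0.61, 0.45 and 0.28 against −0.48, −0.44 and −0.56 (difference 0.94, SE 0.09). Abcc4, a transporter of cyclic nucleotides and prostaglandins (chr14:112885129-112885188, mm7), was at −0.79, −0.83, −0.58 and −1.32 against −2.5, −2.67 and −2.5 (difference 1.67, SE 0.18). In these genes p75-101 stood with the other adenosquamous carcinomas, as the rule required. Other probes of Zfp287 and Abcc4 had differences down to −0.03 and −0.44.

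The other 7 genes with higher values were Zfp644, Carnmt1, Zhx3, Lpar2, Cfl1, Etnk1 and Trim32, with differences from 0.56 to 1.52. No array of a solid carcinoma showed Zfp644 or Etnk1 well above background, which gives at least 1.91-fold and 2.75-fold, and probes of Zfp644 ranged from −0.36 to 0.99. Dimmer probes of Etnk1, Zhx3 and Trim32 had differences down to 0.01, 0.02 and 0.02. Lower in adenosquamous carcinomas were Ppp1r14d, Ppp2r1a, Atxn7l2, Echdc2, Sos2, Ccdc65, Onecut2, Ctnnbip1, Mpst and Ogdh. Atxn7l2, related to a subunit of the SAGA complex, was at −1.64, −1.86, −1.73 and −1.59 against −0.35, −0.82 and −0.81 (difference −1.04, SE 0.14). Ctnnbip1, which keeps β-catenin from TCF factors, was at 0.76, 0.52, 0.47 and 0.73 against 1.36, 1.13 and 1.4 (difference −0.68, SE 0.11). Ppp1r14d, Ppp2r1a and Onecut2 were well above background on some arrays of adenosquamous carcinomas but on every array of none of these tumors, so that their lower values are less certain. The differences of the other 8, these included, ran from −0.8 to −0.41, and that of Echdc2 was 0.39 against all 9 solid carcinomas. Probes of Ccdc65 and Onecut2 reached 0.03 and 0.09.

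Tumors that took no part in the choice of these 20 genes gave mixed values. The adenomyoepithelioma p75-90 was nearer to the adenosquamous than to the solid mean for 4 of the 20, the adenocarcinoma p75-216 for 7, and the 6 solid carcinomas of p110-CUX1 mice for 6 to 11. For Zfp287, p75-90 and p75-216 were at 0.14 and −1.11 and the p110 solid carcinomas at −1.58 to 0.82 with a median of −0.51. For Abcc4 they were at −1.72 and −3.31, and at −4.19 to 0.22 with a median of −2.14. The p110 solid carcinomas thus spanned the levels of both types for these 2 genes.

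**Figure D5:**
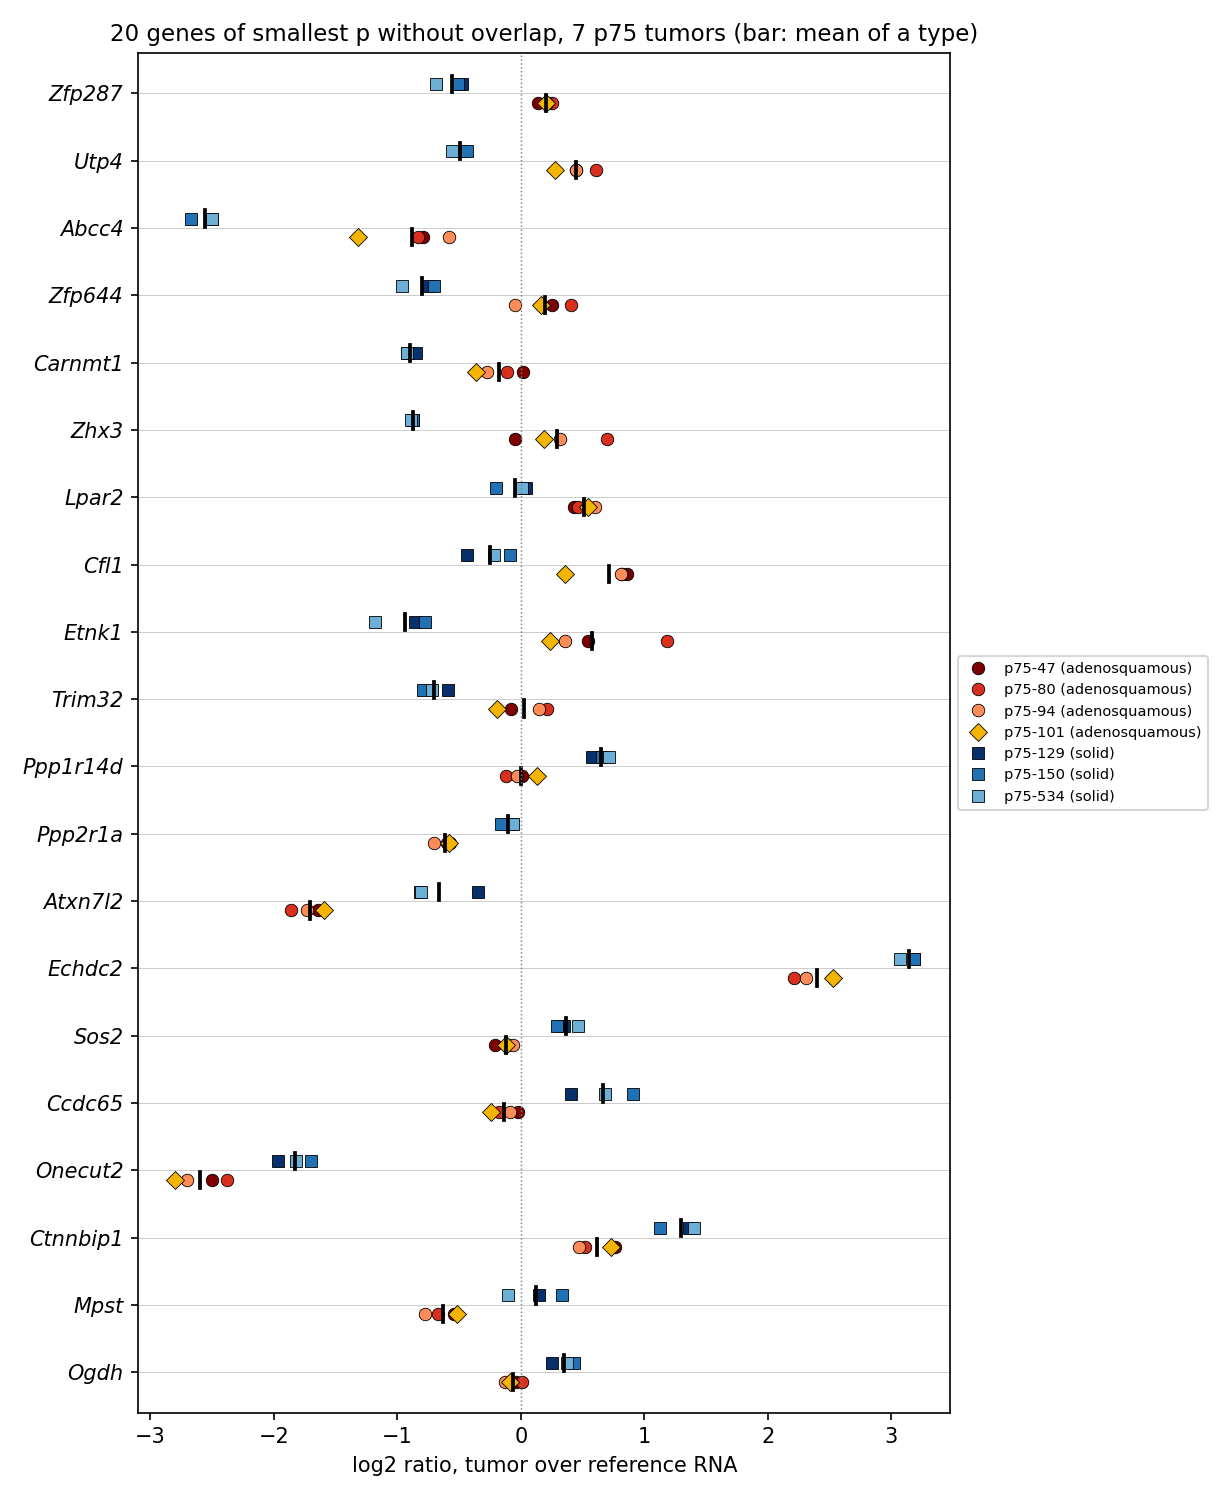
Log2 ratios of tumor over reference RNA for the 20 genes taken by smallest p without overlap, with a point for each tumor and a bar for the mean of each type. The gap between the types is the condition by which the genes were chosen, and none passed the adjusted limma test (smallest adjusted p 0.472).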

How the data were processed

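The deposited files are the scanner output of each array, with intensity values and background marks of every spot, and a table of processed log2 ratios with 1 column per tumor. Per the file headers, the authors extracted intensity with Agilent Feature Extraction on a design with mm7 coordinates. The deposited log2 ratios were rebuilt from the intensity values by limma with normexp (offset 50), loess within arrays and the mean of the dye swaps, to within 4.98e-08, so that the direction is tumor over reference. Dye-swapped arrays of a tumor correlated at 0.849 to 0.906. Of 41174 probes, 23075 were named through RefSeq accessions and the others kept the name in the file. The brightest probe stood for a gene, and among 117 genes in the text, 20 of 49 with several probes had probes that differ in sign. Probes of the same sign could also differ in size, as for Tchh, at 0.03 and 4.91.

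The types were compared with limma 3.58.1 (lmFit, eBayes) in R 4.3.3 on 1 value per tumor, without covariates, with Benjamini-Hochberg adjustment over all 28784 genes. The fit was tested on simulated data. Single values were compared by exact permutation of the 7 tumors. Alternatives changed the background correction, normalization, signals, filter, probes, dye, variance estimate, tumors, scan day, slide and signal covariate. Genes were named by smallest p without overlap, as the up to 3 largest differences of each list, and as defining genes. The comparison, lists and genes were chosen with earlier results of these data known. At least N-fold values use the tumor color after loess and Aquantile normalization.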

Additional observations from a re-analysis of the deposited data

Results flagged for a closer look

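Of 117 genes named in the text, 6 had 1 adenosquamous carcinoma far from the other 3, with a gap over the range of the 4 values above the critical value of Dixon's test. Chance gives this in about 1 in 20 groups, which is near the share found here. Cdkn2b was at −2.2 in p75-101 and at 0.21 to 0.63 in the others. Cfl1, cofilin, was at 0.36 in p75-101 and at 0.81 to 0.86 in the others. Glycam1 was at 0.17 in p75-94 and at 7.95 to 9.33 in the others. Dkk1 was at 4.38 in p75-80 and at −0.01 to 0.09 in the others. Adipoq was at 6.76 in p75-101 and at −0.03 to 0.32 in the others. Ocln, occludin of tight junctions, was at 1.36 in p75-101 and at 0.48 to 0.58 in the others. Dkk1 and Adipoq had been chosen after their values were seen, and 4 of the 6 genes concern p75-101. Among the adenosquamous carcinomas Dkk1 was measured in p75-80 alone, and Adipoq and Ocln in p75-47 and p75-101 alone. Some of the values of the others were therefore not well above background.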

How the results depend on the processing

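The count of genes called by limma was 0 under all alternatives but a pair. With signals as processed by Feature Extraction it was 1 (Tmem71, named after its values were seen, difference −2.38, limma adjusted p 0.0193). With slide as a random block over arrays it was 61, 34 of them with higher values in adenosquamous carcinomas and 13 of them among the 20 genes named by smallest p. That fit takes the 14 arrays as units (slide correlation 0.295), so that the dye swaps of a tumor count as samples. Leaving out each tumor in turn gave 0 to 0 called genes, and 844 to 1927 with an unadjusted p under 0.05. The filter on dim probes left 13689 genes to test. Leaving out p75-101 for the counts without overlap was chosen after seeing the data and gave 1566 genes higher and 1868 lower.

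The difference in the share of probes well above background ran from −10.9 to 2.82 percentage points when a tumor was left out, and was above 0 only without p75-129. Medians kept their sign in all 23 alternatives for cornified envelope genes (0.17 to 0.93), stratified keratins (0.33 to 1.28), Wnt targets (0.17 to 0.97) and milk genes (−1.77 to −0.61). Differences of single genes turned sign as follows, and the cause was not tested. They were without background correction Krt18 −0.05 and Adipoq 0.0, with median centering Cdh1 0.13, Ctnnb1 −0.2, Krt10 −0.24, Krt18 −0.52, Vim −0.42 and Zeb1 −0.13, with signals processed by Feature Extraction Cdh1 0.07, Adipoq −1.04 and Cldn3 0.05, with tumors scaled to the same spread Lcn2 0.36, Vim −0.55, Adipoq −0.05, Cldn3 0.71 and Zeb1 −0.07, with the tumor color without the reference Vim −0.05 and Esam 1.79. They were also with the tumor in Cy5 alone Cdh1 0.01 and Adipoq −0.01, with the tumor in Cy3 alone Lcn2 0.04 and Ocln 0.07, against all 9 solid carcinomas Echdc2 0.39, Hbegf −0.86, Krt10 −0.15, Krt8 0.38, Sostdc1 0.82, Trps1 0.56, Vim −0.43, Adipoq −0.06, Cldn3 0.72, Flt1 −0.19, Ocln 0.1, Zeb1 −0.02 and Zeb2 −0.05, with scan day as a block Cdh1 0.01, Krt18 −0.14, Lcn2 0.25, Dkk1 −0.06, Ocln 0.2, Vwf −0.84 and Zeb1 −0.49, with slide as a random block Krt18 −0.02, Vim −0.05, Ocln 0.03 and Zeb1 −0.03, with tumor signal as a covariate Krt18 −0.12, Lcn2 0.11, Vim −0.15, Adipoq −0.39 and Zeb1 −0.04. Leaving out each tumor in turn gave ranges that include the other sign for Krt18 −0.28 to 0.18, Fabp4 −2.1 to 0.27, Krt10 0.0 to 0.2, Lcn2 −0.69 to 0.33, Dkk1 −0.01 to 1.45, Zeb1 −0.14 to 0.56, Vim −0.67 to 0.62, Cldn3 −0.67 to 0.3, Adipoq −1.57 to 1.39, Ctnnb1 −0.06 to 0.48, Myh4 −4.82 to 0.08, Cdh1 −0.08 to 0.01, Sostdc1 −2.06 to 0.16 and Vwf −0.16 to 1.36. 70 of the 117 named genes had a difference that moved by over 1.5 times or turned sign without some tumor. No analysis paired by replicate number was possible because these numbers were given in accession order and pair no tumors. The same-day pairs enter as scan day. With scan day as a block only 1 residual degree of freedom remains. No depth of counts exists for arrays, and their number, with signal over background, limits the precision.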
